A study of Homo sapiens with 6 samples.

Results

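Cyclins are the regulatory subunits that switch on the cyclin-dependent kinases (CDKs), and 10 genes of this core cell cycle engine are described here: CCND1, CCND3, CDK4, CCNE1, CCNE2, CDK2, CCNA2, CCNB1, CCNB2 and CDK1. They were chosen by symbol, with earlier results of these data known. Every probe that the platform annotation assigns to them was taken, 13 of the 47321 probes on the array. Of these, 11 probes for 9 genes had signal above background on enough arrays to be tested, among 16909 tested probes in all. The samples all came from Hep3B, a line derived from a human hepatocellular carcinoma and known to lack functional p53. In the control group 3 samples received the solvent DMSO for 24 h, and in the treated group 3 samples received sorafenib, a drug that blocks RAF kinases and several receptor kinases of growth and blood vessel factors, for 24 h. The labels give its dose as 3 mM, a unit that may be a slip for a micromolar dose and that the data cannot settle. The labels do not say whether replicates were separate cultures, and p-values measure only how these samples vary, which may be technical variation. The comparison asks how sorafenib alone altered these transcripts.

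D-type cyclins respond to growth factor signals through the RAF, MEK and ERK kinases, and with CDK4 they drive cells through G1 by phosphorylating the retinoblastoma protein. Cyclin E with CDK2 starts DNA replication, cyclin A2 serves S phase and G2, and B-type cyclins with CDK1 drive entry into mitosis. The genes of the later cyclins are themselves transcribed in waves along the cycle, so their RNA level in a culture depends both on the RNA in each cell and on how many cells occupy each phase.

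Normalized values of the tested probes correlated at 0.992 to 0.997 between arrays of a group and at 0.977 to 0.982 between groups, and no 2 arrays held identical values. The hepatocyte and liver cancer markers with a probe, among them ALB and AFP, were detected on all 6 arrays (11 of 11), and their summed linear signal was 185211 to 190472 in control and 186081 to 191091 with sorafenib. Of 7 fibroblast markers, the 3 collagen genes, DCN and THY1 were detected on no array. The fibroblast sum was 1788 to 2020 in control and 1260 to 1294 with sorafenib, most of it from LUM, whose log2 intensity was 10.56 to 10.78 in control and 10.05 to 10.12 with sorafenib. PDGFRB was detected on 3 of the 6 arrays, with log2 intensities of 6.28 to 6.59 in control and 4.74 to 5.08 with sorafenib. The part of these fibroblast markers in the results was not tested. None of 6 endothelial markers was detected. Of 6 leukocyte markers PTPRC, CD3E and ITGAM were detected on no array, while CD14, CD68 and LYZ were detected on all 6. The leukocyte sum was 1714 to 1762 in control and 1543 to 1760 with sorafenib, and its parts differed in direction. LYZ gave log2 intensities of 8.75 to 8.80 in control and 6.75 to 7.20 with sorafenib, CD14 gave 9.36 to 9.46 and 9.74 to 9.98, and the CD68 ranges overlapped. Their part in the results was likewise not tested.

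Most of the measured cyclins and their kinases were lower with sorafenib. By the limma test with Benjamini-Hochberg adjustment over all probes (threshold 0.05), 7 of the 9 measured genes were lower, none was higher, and CDK4 and CCNB2 did not pass. Among all 10598 genes, each represented by its brightest tested probe, 17.0% were called lower and 19.7% higher. The median log2 difference was -0.54 over the 9 members and 0.00 over all genes. CCNE1 showed the greatest fall of the 9, close to a halving, and the falls of the others that passed lay between 1.33-fold and 1.53-fold. These are bulk samples: less RNA per cell and fewer cells in the phase that expresses a gene cannot be told apart.

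**Figure D1:**
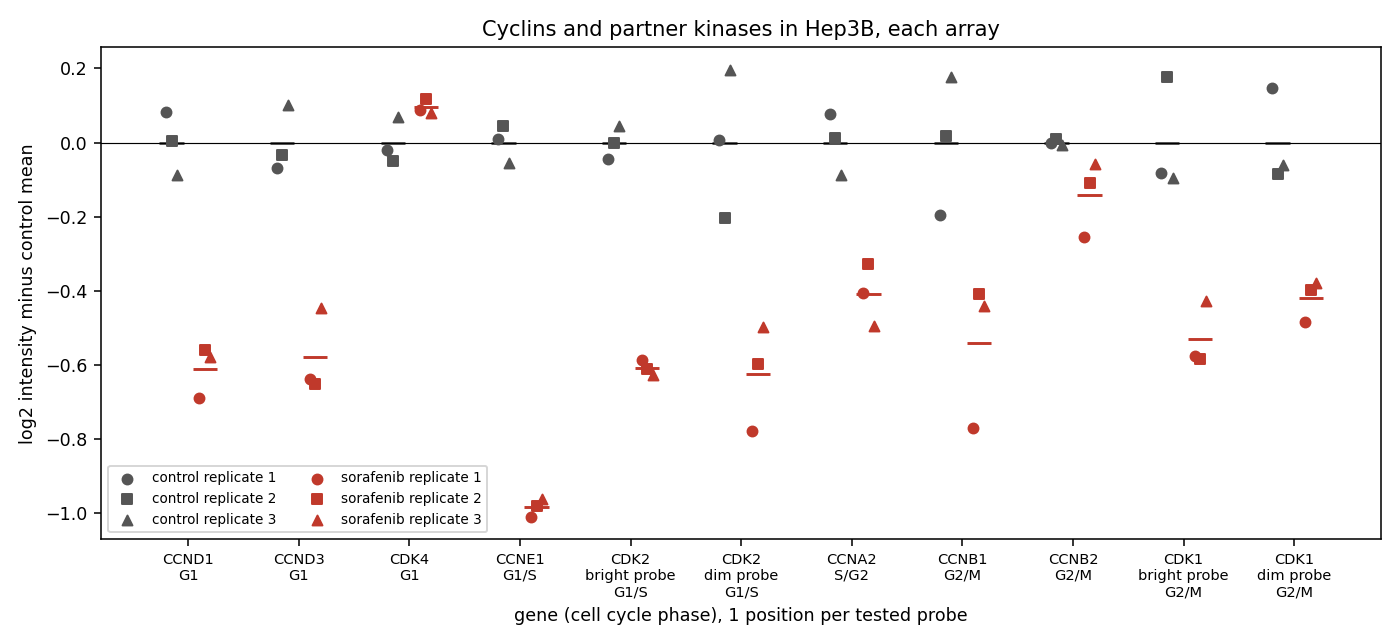
Normalized log2 intensity of each tested probe on each array (vertical axis), with the control mean of that probe set to 0, for genes ordered by cell cycle phase (horizontal axis). Grey points are the 3 control arrays, red points the 3 sorafenib arrays, marker shapes are replicate numbers and bars are group means; CDK4 is the only gene whose sorafenib arrays lie above its control arrays.

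CCND1 encodes cyclin D1, the D-type cyclin best known as a target of ERK signalling. Its probe gave log2 intensities of 12.30, 12.22 and 12.12 in control and of 11.52, 11.65 and 11.63 with sorafenib. All sorafenib arrays lay below all control arrays, and CCND1 fell 1.53-fold (log2 -0.61 ± 0.08, SE, 95% interval -0.79 to -0.43, limma adjusted p = 0.00135, n = 3 per group). CCND3 encodes cyclin D3, a second activator of CDK4. It gave 11.40, 11.43 and 11.57 in control and 10.83, 10.82 and 11.02 with sorafenib. The groups again did not overlap, and CCND3 fell 1.49-fold (log2 -0.58 ± 0.09, limma adjusted p = 0.00281).

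CDK4, a catalytic partner of the D-type cyclins, did not pass the test. It gave log2 intensities of 13.03, 13.00 and 13.11 in control and of 13.13, 13.16 and 13.13 with sorafenib. The 3 sorafenib arrays were slightly above the 3 control arrays, an order that 27.8% of all genes showed. The log2 difference of 0.10 ± 0.06 had a 95% interval of -0.06 to 0.25 (limma adjusted p = 0.299), and the difference was -0.015 when arrays were centred on the tested probes. The interval excludes a fall as deep as that of CCND1 or CCND3. CCND2, also a D-type cyclin gene, is not a member and is described with the other cyclins.

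CCNE1, the cyclin E1 gene, encodes the activator of CDK2 at the start of S phase. Its brighter probe (ILMN_2374425) gave log2 intensities of 10.26, 10.30 and 10.20 in control and of 9.24, 9.27 and 9.29 with sorafenib. The arrays of each group lay close together, with a gap between the groups many times their spread (SD 0.05 in control and 0.02 with sorafenib). CCNE1 fell 1.98-fold (log2 -0.98 ± 0.06, 95% interval -1.13 to -0.83, limma adjusted p = 0.000117), and 97.4% of tested probes changed by the same amount or less. A second CCNE1 probe (ILMN_1733419) was detected on none of the 6 arrays, with detection p-values from 0.0961 to 0.414 and raw intensities of 100.3 to 115. It therefore carries no information on the change.

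CCNE2 encodes cyclin E2, the close relative of cyclin E1. Its single probe was not above background on any array. Raw intensities were 79.4, 74.6 and 71.3 in control and 88.6, 76.9 and 86.4 with sorafenib, with detection p-values of at least 0.731. No difference between groups can be given for CCNE2, and the planned comparison of the E-type cyclins could not be made.

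CDK2 is the kinase that cyclins E and A activate. Its brighter probe gave log2 intensities of 12.04, 12.08 and 12.13 in control and of 11.49, 11.47 and 11.45 with sorafenib. The dimmer probe gave 8.33, 8.12 and 8.52 in control and 7.55, 7.73 and 7.83 with sorafenib. Neither probe showed any overlap between groups. CDK2 fell 1.52-fold on the brighter probe (log2 -0.61 ± 0.06, limma adjusted p = 0.000642) and 1.54-fold on the dimmer one (log2 -0.62 ± 0.12, adjusted p = 0.00808). The probes thus differed by less than the error of either.

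CCNA2, the cyclin A2 gene, encodes a partner first of CDK2 in S phase and then of CDK1 in G2. It gave log2 intensities of 12.09, 12.03 and 11.93 in control and of 11.61, 11.69 and 11.52 with sorafenib. Groups did not overlap, and CCNA2 fell 1.33-fold (log2 -0.41 ± 0.08, 95% interval -0.59 to -0.23, limma adjusted p = 0.00737), the smallest of the falls that passed.

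CCNB1 encodes cyclin B1, the main activator of CDK1 at mitotic entry. Its log2 intensities were 8.68, 8.89 and 9.05 in control and 8.10, 8.46 and 8.43 with sorafenib. The lowest control array stood above the highest sorafenib array, but the spread within groups was the widest among the members' brightest probes (SD 0.19 and 0.20). CCNB1 fell 1.45-fold (log2 -0.54 ± 0.13, 95% interval -0.85 to -0.23, limma adjusted p = 0.0194). The call was lost without control replicate 2 (adjusted p = 0.0547) and without control replicate 3 (adjusted p = 0.0537).

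CCNB2 encodes cyclin B2, the second mitotic B-type cyclin. It gave 12.009, 12.019 and 12.003 in control and 11.76, 11.90 and 11.95 with sorafenib. All 3 sorafenib arrays were below the control arrays, as for 25.7% of all genes, and sorafenib replicate 1 was the lowest. The log2 difference of -0.14 ± 0.07 did not pass (95% interval -0.31 to 0.03, limma adjusted p = 0.182), and without sorafenib replicate 1 it was -0.08.

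CDK1, the mitotic kinase, had 2 tested probes. The brighter gave log2 intensities of 10.34, 10.60 and 10.33 in control and of 9.85, 9.84 and 9.9999 with sorafenib. The dimmer gave 7.20, 6.96 and 6.99 in control and 6.56, 6.65 and 6.67 with sorafenib. Each separated the groups without overlap. CDK1 fell 1.44-fold on the brighter probe (log2 -0.53 ± 0.10, limma adjusted p = 0.00633) and 1.34-fold on the dimmer one (log2 -0.42 ± 0.08, adjusted p = 0.00904). In the authors' deposited log2 values, to which no background correction had been applied, the dimmer CDK1 probe differed by -0.25 and the brighter by -0.49.

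**Figure D2:**
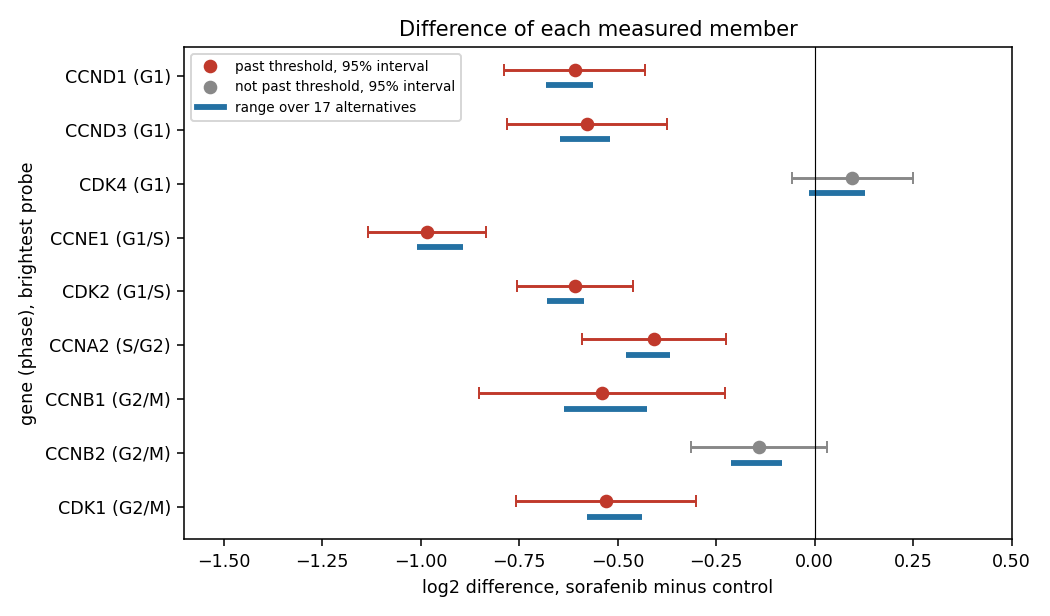
Log2 difference between sorafenib and control (horizontal axis) for the brightest tested probe of each of the 9 measured genes (vertical axis), 3 arrays per group. Points with bars are the fit and its 95% interval, red where the adjusted p passed and grey where it did not; blue bars span the values over 17 alternative analyses, and those of CDK4 reach across 0.

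Cell cycle genes carry promoter elements known to bind regulators of their transcription. The CHR (cell cycle genes homology region) is bound by the DREAM and MYB complexes, the CCAAT box by NF-Y, and the E2F site by E2F factors. Promoter windows from RefSeq (GRCh38.p14, 250 bases before to 50 after an annotated start) were taken for 7 of the 10 genes, 10 windows in all. They were searched on both strands. The CHR was searched in its canonical form TTTGAA, in the variant CTTGAA, in the further variant TTTAAA and in a last variant read as TTCGAA. NF-Y boxes were searched as CCAAT. E2F sites were searched as TTTCCCGC or with other middle letters as TTTCGCGC, then TTTGCCGC, and also TTTGGCGC. Sites with other letters were not searched, so a window without a match may still hold a site. The windows of CCNE1, which fell most, and of CCNA2, CCNB1, CCNB2 and CDK1, the cyclins and kinase of the later phases, are shown 5′ to 3′ on the sense strand. Capitals mark every match on either strand, so a CCAAT box of the opposite strand reads ATTGG. The CDK1 window is that of the downstream of its 2 annotated starts.
CCNE1, chr19:29811741-29812040, plus strand: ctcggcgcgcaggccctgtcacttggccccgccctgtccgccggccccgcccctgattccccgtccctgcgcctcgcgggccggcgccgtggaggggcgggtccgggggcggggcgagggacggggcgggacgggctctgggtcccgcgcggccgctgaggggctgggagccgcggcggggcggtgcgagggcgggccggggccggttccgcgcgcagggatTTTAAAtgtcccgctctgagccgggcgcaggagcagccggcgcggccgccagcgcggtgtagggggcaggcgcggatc
CCNA2, chr4:121823834-121824133, minus strand: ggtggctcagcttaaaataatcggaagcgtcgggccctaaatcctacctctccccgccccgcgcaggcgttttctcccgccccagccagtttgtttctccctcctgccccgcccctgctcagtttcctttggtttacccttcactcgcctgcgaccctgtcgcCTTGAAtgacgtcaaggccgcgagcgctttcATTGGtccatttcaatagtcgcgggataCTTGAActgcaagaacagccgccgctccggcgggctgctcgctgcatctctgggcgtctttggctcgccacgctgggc
CCNB1, chr5:69166900-69167199, plus strand: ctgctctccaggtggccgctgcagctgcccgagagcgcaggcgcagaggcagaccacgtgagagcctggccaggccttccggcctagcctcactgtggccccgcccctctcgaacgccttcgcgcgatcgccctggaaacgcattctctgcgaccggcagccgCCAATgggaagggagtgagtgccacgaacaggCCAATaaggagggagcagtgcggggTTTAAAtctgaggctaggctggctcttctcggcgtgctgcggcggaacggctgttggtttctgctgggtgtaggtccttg
CCNB2, chr15:59104896-59105195, plus strand: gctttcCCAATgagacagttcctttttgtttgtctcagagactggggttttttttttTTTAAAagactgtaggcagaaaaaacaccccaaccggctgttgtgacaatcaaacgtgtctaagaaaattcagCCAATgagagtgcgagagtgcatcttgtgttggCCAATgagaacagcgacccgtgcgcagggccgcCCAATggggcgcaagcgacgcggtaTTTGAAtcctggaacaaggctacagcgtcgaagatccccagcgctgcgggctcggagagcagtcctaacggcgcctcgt
CDK1, chr10:60778228-60778527, plus strand: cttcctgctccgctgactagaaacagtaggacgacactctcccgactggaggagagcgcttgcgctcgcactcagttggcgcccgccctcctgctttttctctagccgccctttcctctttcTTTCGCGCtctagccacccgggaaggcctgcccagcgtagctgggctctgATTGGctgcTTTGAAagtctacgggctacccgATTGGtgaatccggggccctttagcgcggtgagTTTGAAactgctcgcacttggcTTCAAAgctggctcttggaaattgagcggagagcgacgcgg

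A match to the CHR forms was present in 32.2% of all 35116 promoter windows, a CCAAT box in 34.6% and an E2F form in 3.31%. In CCNB2 a CHR match lay at positions -29 to -24 from the start and another at -193 to -188. CCNA2 had matches at -28 to -23 and at -87 to -82. In CCNB1 a match lay at -30 to -25 and in CCNE1 at -28 to -23, both with the variant letters TTTAAA. The downstream CDK1 window held a CHR at -13 to -8, 2 further CHR matches and an E2F form at -128 to -121. CCNB1 carried CCAAT boxes whose starts were 32 bases apart, CCNB2 had successive boxes 33 bases apart, and the CDK1 boxes, on the opposite strand, were 32 bases apart. Boxes on the same strand with starts 31 to 33 bases apart occurred in 0.849% of all windows, a spacing chosen after the windows of these genes had been seen. CDK4 had no match to any of these letters in its window. CCND3 had a CCAAT box in 2 of its 3 windows, and none of the 3 held a CHR. No relation between matches and differences was tested. A match is a stretch of letters and shows no binding, and matches of different motifs did not overlap in these windows.

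**Figure D3:**
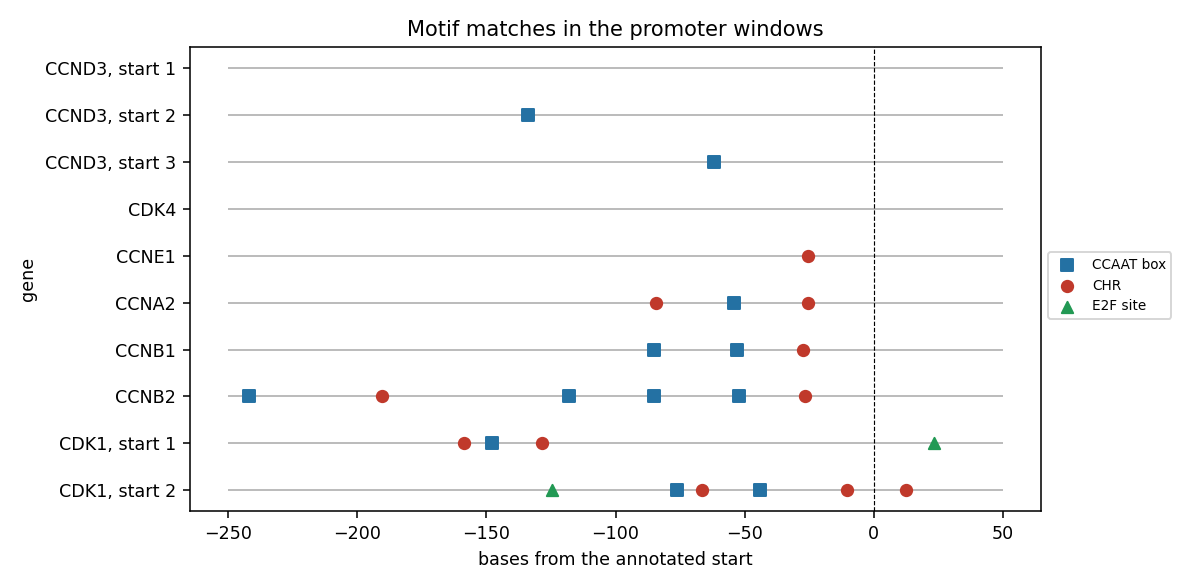
Position of each motif match in bases from the annotated start (horizontal axis) in the 10 promoter windows of 7 member genes (vertical axis). Circles are CHR forms, squares CCAAT boxes and triangles E2F forms; the CDK4 line is empty and CCNB2 has 4 squares.

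The differences among members were compared as ratios within each array, for 7 pairs. With 3 arrays against 3, the exact permutation test cannot go below p = 0.1, so no pair could pass. The log2 ratio of CCND1 to CDK4 differed by -0.70 and that of CDK2 to CDK4 also by -0.70, with no overlap between groups in either (two-sided exact permutation p = 0.1 for each, adjusted p = 0.175 over the 7 pairs). The ratio of CCNE1 to its kinase CDK2 differed by -0.37 and that of CCNB1 to CCNB2 by -0.40, also without overlap (exact permutation p = 0.1, adjusted p = 0.175). Such separation was common for single genes, 25.7% of which lay lower and 27.8% higher without overlap. Its share among ratios of other genes was not computed.

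The other pairs overlapped between groups. The difference of the log2 ratio was -0.03 for CCND1 against CCND3 (exact permutation p = 0.8), 0.08 for CDK1 against CDK2 (p = 0.5, exact) and -0.01 for CCNB1 against CDK1 (p = 1, exact). A p of this size does not show that the genes in a pair moved alike.

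**Figure D4:**
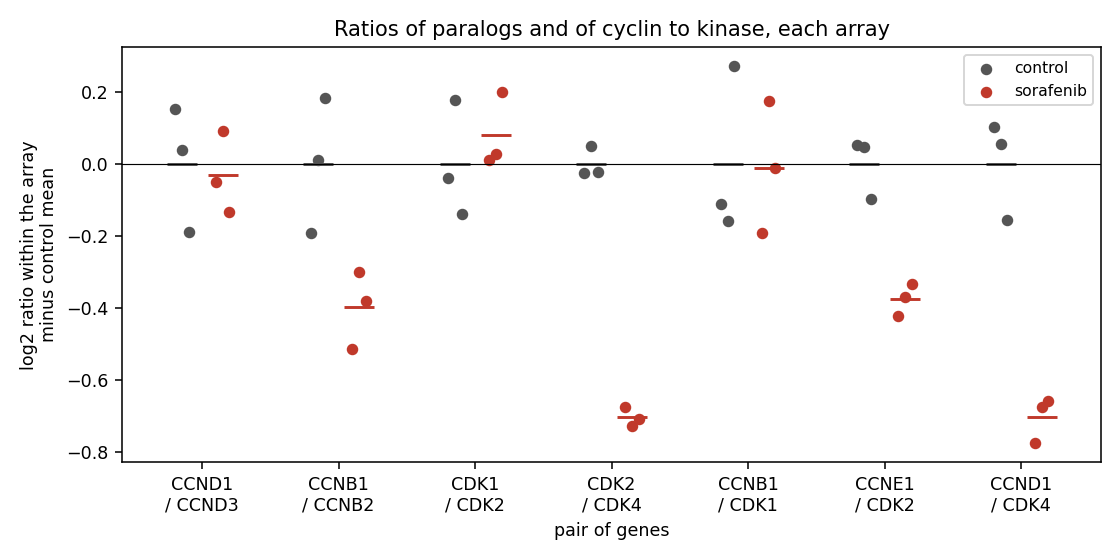
Log2 ratio of 2 genes within each array, with the control mean of the ratio set to 0 (vertical axis), for 7 pairs of paralogs, kinases, or cyclin and kinase (horizontal axis). Grey points are the 3 control arrays, red points the 3 sorafenib arrays and bars group means; the ratios of CDK2 and of CCND1 to CDK4 lie lowest, near -0.70.

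The mean profile of CCNA2, CCNB1, CCNB2 and CDK1 over the 6 arrays, each centred on its control mean, differed by -0.40 between groups. Ranked by the root mean square difference from it, the closest of 10589 other genes were C1GALT1 (0.0269 log2 units), which encodes a galactosyltransferase of O-glycan synthesis, and PSRC1 (0.0307), which encodes a spindle-associated protein. They were followed by the thioredoxin-related TMX1 (0.0320), the proton pump subunit ATP6V0E1 (0.0323) and the pyruvate dehydrogenase subunit DLAT (0.0332). The 4 genes behind the profile were themselves 0.0952 (CCNA2) to 0.189 (CCNB2) from it. Of the other members, CCND3 (0.148), CDK2 (0.159) and CCND1 (0.160) lay within that range. CDK4 (0.361) and CCNE1 (0.412) lay further away. The ranking picks the nearest of many genes, so these distances are a description and single out no gene.

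Around the members, 7 lists of cell cycle regulators were examined, in which 80 of 91 genes were measured. Of the 80, 24 fell (30.0%, against 17.0% of all genes) and 7 rose (against 19.7% of all genes), with a median log2 difference of -0.16. With arrays centred on the median of all probes 16 of the lists' genes fell. Fewer genes fell in all with that centring, 893 of 10598 against 1802. Of the 12 other cyclins measured, 2 were called lower (16.7%, near the share of all genes) and none higher, and the median was 0.01. In some alternatives 1 of the 12 was called higher. These included no background correction, the deposited log2 values, an offset of 50 and centring on the median of all probes. CCND2, a D-type cyclin gene named after its values were seen, came nearest to passing as higher (log2 0.28 ± 0.09, limma adjusted p = 0.0505). All its sorafenib arrays lay above all its control arrays, an order that 27.8% of all genes showed. CCND1 and CCND3 had the opposite order, as did 25.7% of all genes. CCNF, which encodes cyclin F, the substrate receptor of a ubiquitin ligase, fell 1.52-fold (log2 -0.60 ± 0.07, limma adjusted p = 0.000906). CCNG2, an atypical cyclin linked to growth arrest, is the other of the 2. Its brightest probe was detected on 3 control arrays and no sorafenib array, so it passed the detection filter only through the group where it was high. The CCNG2 call therefore supports nothing, although it is counted in the 2 and in the 24. Its log2 intensities were 6.06, 6.49 and 6.42 in control and 5.74, 5.36 and 5.37 with sorafenib. Both other CCNG2 probes were too dim to be tested, one differing by 0.06 with overlapping groups and the other by -0.37. No fall is therefore claimed for CCNG2.

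Among 15 other CDKs, 3 fell and 2 rose, near the shares of all genes (17.0% lower and 19.7% higher), with a median of -0.03. CDK18 rose 1.73-fold (log2 0.79 ± 0.09, limma adjusted p = 0.000798) on the only tested probe of its 4, a probe near background with raw intensities of 142 to 217. In the authors' deposited log2 values the CDK18 difference was 0.41. The transcription elongation kinases CDK12 (1.39-fold) and CDK9 (1.35-fold) fell. In the list of CDK activators and inhibitory kinases 3 of 8 fell (37.5%, against 17.0% of all genes) and none rose. They were PKMYT1, an inhibitory kinase of CDK1 (1.65-fold), CDC25A, a phosphatase that activates CDK2 (1.49-fold), and CKS2, a CDK-binding subunit (1.39-fold). The list therefore held falls of both activating and inhibitory genes.

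Of 7 measured CDK inhibitors 5 fell (71.4%, against 17.0% of all genes) and none rose, with a median of -0.36. The count of falls depended on the settings: it was 2 with arrays centred on the median of all probes and 3 with no filter on detection. It was also 3 without control replicate 1, without control replicate 2 and without sorafenib replicate 2. Of all genes, 893 of 10598 fell with that centring and 1262 of 20045 with no filter, against 1802 of 10598. Without those 3 arrays in turn, 1196 of 10484, 1375 of 10504 and 1341 of 10361 fell. CDKN3, a phosphatase of CDK2 that is itself expressed in cycling cells, fell 1.40-fold, CDKN1C (p57) 1.36-fold and CDKN2D (p19) 1.35-fold. The CDKN2D call was among those lost with that centring (adjusted p = 0.0701). The 2 that did not pass, named after their values were seen, were CDKN1A (p21) and CDKN1B (p27). CDKN1A differed by log2 -0.02 ± 0.10 (limma adjusted p = 0.881) and CDKN1B by 0.07 ± 0.09 (limma adjusted p = 0.582).

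RB1, the retinoblastoma gene whose protein is the main substrate of cyclin D and CDK4, was detected on none of the 6 arrays with its 1 probe, and Hep3B is known as a line without functional retinoblastoma protein. In the RB and E2F family 3 of 10 measured genes fell (30.0%, against 17.0% of all genes) and none rose, with a median of -0.13. The count was 5 with array weights and with a trended, robust variance model. Of all 10598 genes 2159 and 2105 fell with these, against 1802. The repressor E2F7 fell 1.77-fold (log2 -0.82 ± 0.09, limma adjusted p = 0.000761), the E2F partner TFDP1 1.35-fold and E2F2 1.28-fold. The E2F2 call was lost with arrays centred on the median of all probes (adjusted p = 0.114).

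In the DREAM, MYB and FOXM1 list 2 of 7 fell and 1 rose, against 17.0% and 19.7% of all genes. The count of falls was unstable: 0 with arrays centred on the median of all probes, 1 or 2 with an array left out, and 4 without background correction, with an offset of 50, with detection on all 6 arrays or with the trended, robust variance model. Of all 10598 genes 893 fell with that centring and 1995 without background correction, against 1802. LIN37, a DREAM subunit, rose 1.34-fold, while RBBP4, another subunit, fell 1.31-fold on its brightest probe and did not pass on its other 2. The RBBP4 call was lost with the centring on all probes (adjusted p = 0.0780) and with the median over its probes (0.0998). FOXM1, a transcription factor of mitotic genes, fell 1.27-fold on its brighter probe, a call lost in 8 of 17 alternatives, among them 5 of the 6 that left out an array (adjusted p up to 0.157 over the 17). Its dimmer FOXM1 probe fell 1.42-fold. The LIN37 call was lost without control replicate 1 (adjusted p = 0.0588), without control replicate 2 (0.0619) and with no filter on detection (0.0519).

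Among 21 measured genes of cyclin degradation 6 fell (28.6%, against 17.0% of all genes) and 4 rose, close to the 19.7% of all genes that rose, with a median of -0.15. FBXO5 (EMI1), the inhibitor of the anaphase-promoting complex, fell 1.71-fold (log2 -0.78 ± 0.07, limma adjusted p = 0.000294), while a second FBXO5 probe near background did not pass. UBE2C, the ubiquitin-conjugating enzyme of that complex, fell 1.40-fold and RBX1, the RING subunit of cullin ligases, also 1.40-fold. The 4 that rose, named after their values were seen, were the anaphase-promoting complex subunits CDC16 (1.40-fold) and ANAPC5 (1.21-fold) and the F-box genes FBXO4 (1.37-fold) and FBXO31 (1.25-fold). The count of rises was 2 without sorafenib replicate 1 and without sorafenib replicate 2. Of all genes 1438 of 10397 and 1556 of 10361 rose in these, against 2086 of 10598.

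**Figure D5:**
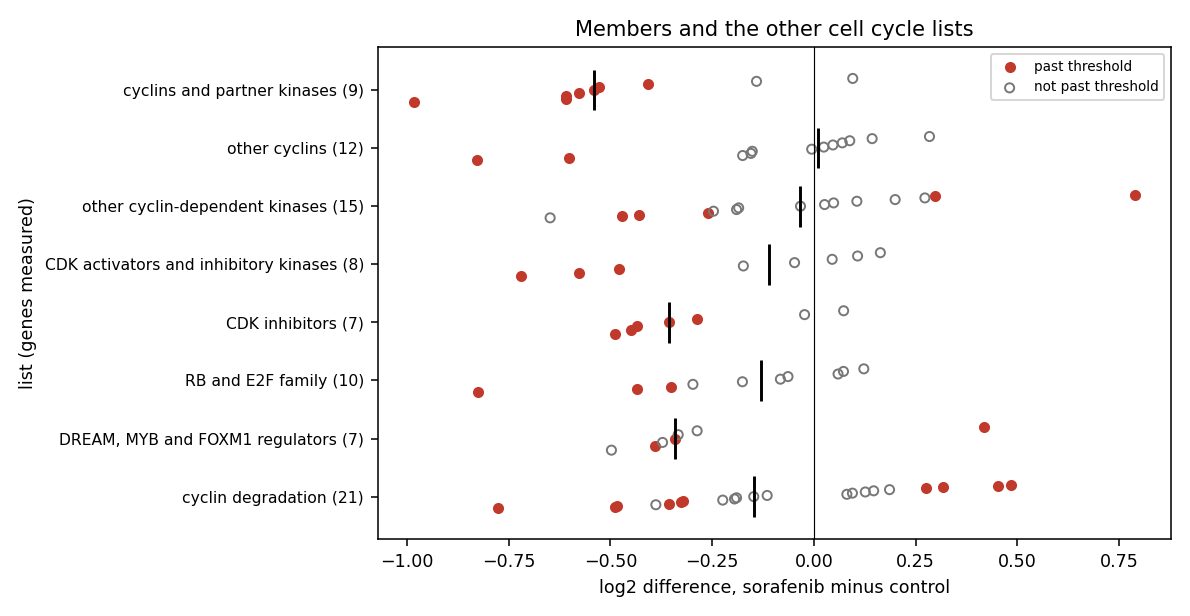
Log2 difference between sorafenib and control (horizontal axis) of each measured gene of the members and of 7 other cell cycle lists (vertical axis, with the number of genes). Red points passed the threshold, open points did not, and black bars are medians. The members' median of -0.54 is the lowest of the 8. Members and lists were chosen with earlier results of these data known, so this order is only a description.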

How the data were processed

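Biotinylated cRNA was hybridised to Illumina BeadChips, per the labels' protocols. For 47321 probes the authors deposited intensities without normalization, each with its detection p-value, per the file headers, and also log2 values of unstated method. Those deposited log2 values equalled quantile-normalized log2 raw intensities to within 5.0e-07 (median 6.79 on each array), which settles scale and centring. Scanner software is not given in the sources used here.

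Intensities were background-corrected from the detection p-values (limma 3.58.1 neqc, R 4.3.3, offset 16), quantile-normalized and taken to log2. Probes with detection p under 0.01 on at least 3 of 6 arrays (16909) were fitted with lmFit and eBayes, two-sided and without a block, and Benjamini-Hochberg adjusted over all of them at 0.05. Errors are moderated SEs. The number of arrays limits the precision. Probes with 1 symbol in the annotation numbered 30112, with several 8 and with none 17201; a gene stands for its brightest tested probe. Ratios used exact permutation over the arrays. The test was run on simulated data with known changes.

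Members, lists and tests were chosen with earlier results of these data known. Named were every member, up to 3 called genes with the largest differences per other list, RB1, and the 5 nearest profiles. Genes said to be named after their values were seen are further to these. Alternatives were other background corrections, centrings, detection filters, variance models, array weights, a replicate block, the median over probes and leaving out each array.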

Additional observations from a re-analysis of the deposited data

How the results depend on the processing

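Over 17 alternatives 6 or 7 member genes fell and none rose. The members' median lay between -0.59 and -0.51 when 1 array was left out and was -0.44 with arrays centred on the median of all probes, where it moved by more than the spread between sorafenib arrays. That centring shifted the median of all genes by 0.07, and gave 4439 called probes, 69.5% of them higher, against 5778 and 52.5%. It called 893 of the 10598 genes lower, against 1802. Called probes numbered 4013 to 4871 with 1 array left out. Among the other lists, 19 to 23 genes fell and 4 to 8 rose with 1 array left out, the lowest count of rises being without sorafenib replicate 2, against 24 and 7; over all 17 alternatives 16 to 31 fell and 4 to 10 rose, the 16 with arrays centred on the median of all probes. CDK4 reversed to -0.015 when centred on the tested probes, without passing. Ratios whose groups overlapped also changed sign: CCNB1 to CDK1 was 0.047 without background correction (the deposited values gave the same), 0.018 with an offset of 50 and -0.11 to 0.13 with 1 array left out, and CCND1 to CCND3 was -0.13 to 0.044 with 1 array left out. The causes were not tested. With the replicate block 5519 probes passed and 7 member genes fell; it changed the call of FOXM1 (adjusted p = 0.0735) and of no other named gene. Same-numbered arrays had deviations correlated at 0.089, 0.10 and 0.25, the last between the arrays numbered 3. Between differently numbered arrays the correlations lay between -0.17 and 0.099. The numbers were not taken as pairs in the main fit, and these correlations do not settle whether they are. Probes near background, such as that of CCNE2, limit what can be seen.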
